A study of Mus musculus with 24 samples.

Results

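CD11c-negative adipose tissue macrophages (CD11c- ATM) from mice that had lost weight were compared with the same sort from mice that were still obese. The comparison used 5 of the 24 arrays of the series, 2 of the group labelled WL and 3 of the group labelled HFD, chosen by the group name in each sample title. All mice were male C57Bl/6, and the cells were live stromal cells sorted from collagenase-digested gonadal fat. HFD mice were fed a diet with 60% fat. WL mice had eaten that diet for 12 weeks and were then taken off it for 8 weeks. The 2 arrays of lean mice on normal diet (ND CD11c- ATM) and the CD11c+ ATM arrays of WL mice (3) and HFD mice (3) served for comparison. Each HFD sample was a pool of 3 to 4 mice and the ND macrophages were 2 pools of cells from 4 mice. Not stated are whether the WL samples were pools, how long HFD mice had been fed, the ages of the mice and which gating markers besides CD11c were used.

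Adipose tissue macrophages clear dying fat cells and handle the lipid they release. In obesity their number grows, and cells carrying CD11c, an integrin encoded by Itgax, join the CD11c-negative cells that dominate lean fat. Mast cells are another resident leukocyte of fat: they store proteases, histamine and serotonin in granules, bind IgE through the high-affinity Fc receptor, and depend on the receptor Kit.

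Each array gave a normalised log2 expression value per gene, and 15496 genes were tested. At an adjusted p below 0.05, 459 genes differed between WL and HFD CD11c- ATM: 182 were higher in WL (1.17% of the genes tested) and 277 were lower (1.79%). At an unadjusted p below the same value there were 2739. Differences are WL minus HFD on the log2 scale, given ± the standard error (SE) of the fit, and the median over all genes was -0.09. Over all genes tested, 6616 differences were above 0 and 8880 were below. The split by direction depended on scaling: 39.7% of the calls were higher in WL, against 62.3% after each array was centred on its median and 57.6% after a further quantile normalization, which moved the median over all genes to 0.05 and -0.02. Of the 277 lower calls, 143 were still called after centring, as were 179 of the 182 higher calls. In each of the 459 called genes the WL and HFD arrays did not overlap, but that also held for 33% of all genes tested. The fit shared its estimate of the spread with all 9 groups of the series, and 31 genes were called (25 higher and 6 lower) when it held only these 5 arrays. There were 199 calls without HFD replicate 1 and 277 without HFD replicate 2, and 74 genes were called with each of the 5 arrays left out.

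The 2 WL arrays resembled each other less than the HFD arrays did. Across genes, the correlation was 0.918 between the WL arrays, 0.948 to 0.961 among the HFD arrays and 0.900 to 0.929 between a WL and an HFD array. Genes are not independent replicates, and these values are descriptions. Markers of the sort were also looked at. Of the 15 macrophage identity genes listed, 14 were tested and were above the array median on each of the 5 arrays. All 22 tested preadipocyte and fibroblast genes were above it on these arrays too, so this count does not tell macrophages from other cells. Cd68, a lysosomal protein of macrophages, stood at 11.09 and 11.13 in WL and at 11.19, 11.12 and 11.10 in HFD. Itgax itself stood at 5.94 and 7.10 in WL and at 6.40, 4.93 and 7.07 in HFD CD11c- ATM, below the 7.70 to 9.19 of the CD11c+ arrays and above the 3.01 and 2.76 of lean mice. In whole sorted samples, fewer cells of a type and less RNA per cell cannot be told apart.

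Mast cell genes were among the largest rises. Of 18 mast cell markers listed, 17 were named on the array, 14 were tested and 11 rose, where 1.17% of all genes tested rose. The median difference over the 14 was 4.57, against -0.09 over all genes. A gene was tested if above the array median on at least 2 arrays, so the WL arrays alone could admit a gene. This filter could thus favour genes high in WL, and the median covers only the genes it kept. Without the filter 10 members were called. The median level of the list was 7.22 and 8.00 in WL, 3.61, 2.23 and 2.73 in HFD, and 2.36 and 2.42 in lean mice. WL and HFD arrays did not overlap, and HFD replicate 1 was the highest of the obese arrays. On that array 10 of the 14 genes were above the array median, against 2 and 5 on HFD replicates 2 and 3, and 13 on both WL arrays. With 1 of the 5 arrays left out, 9 to 12 members were called.

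**Figure D1:**
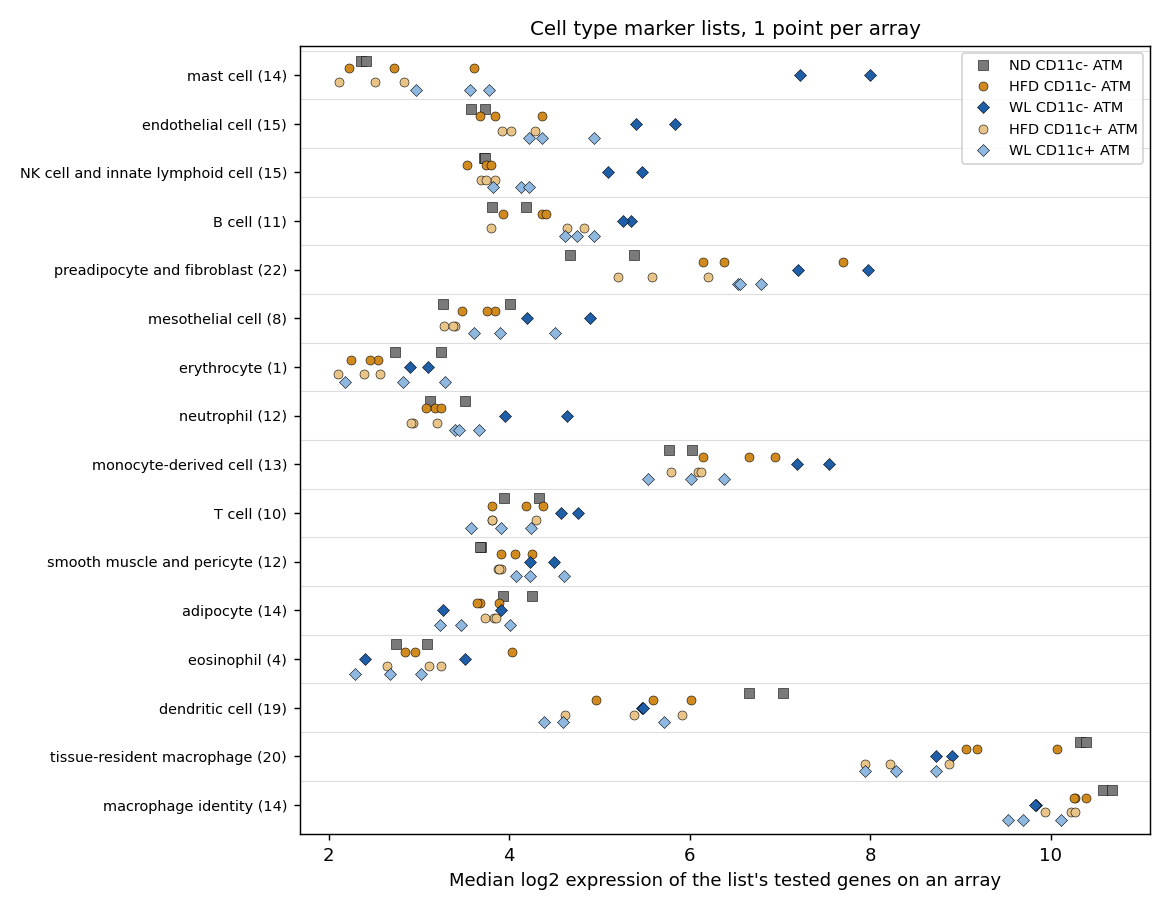
Median log2 expression of each cell type marker list (number of tested genes in brackets) on every array of 5 macrophage groups, 1 point per array; lists are ordered by their median difference between WL and HFD CD11c- ATM. The mast cell list stands at 7.22 and 8.00 on the WL CD11c- arrays and at or below 3.78 on every other array shown.

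Tph1, the tryptophan hydroxylase that starts serotonin synthesis outside the nervous system, had the smallest adjusted p of the comparison. Its level was 7.78 and 7.25 in WL, 2.21, 2.67 and 2.06 in HFD, and 2.18 and 1.74 in lean mice. The difference was 5.20 ± 0.27 (limma, adjusted p = 7.88e-10). All obese and lean arrays lay below the array median, which was used as a floor, a choice made after the values were seen. Against that floor the rise was at least 4.44. Of the other genes for amine handling, Hdc, which makes histamine, rose by 4.63 ± 0.41 (at least 4.00). Slc18a2, the vesicular monoamine transporter, rose by 3.70 and Slc6a4, the serotonin transporter, by 3.25 (at least 2.67), and both were picked after their values were seen.

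The IgE receptor and the growth factor receptor of mast cells rose together. Fcer1a, the IgE-binding chain, stood at 7.57 and 8.43 in WL against 3.24, 2.10 and 2.92 in HFD, a difference of 5.25 ± 0.65 (adjusted p = 0.000101). Ms4a2, the beta chain of the same receptor, rose by 2.78. Kit stood at 7.22 and 9.05 against 4.31, 3.91 and 4.01, a difference of 4.06 ± 0.48. Gata2, a transcription factor needed for mast cells, rose by 2.72 (at least 1.84). Mrgprb1 and Mrgprb2, receptors of connective tissue mast cells, rose by 5.13 ± 0.49 and 4.85 ± 0.59. For each of these genes both WL arrays were above all HFD arrays. No called gene had overlapping WL and HFD arrays, nor did 33% of all genes tested, so this adds nothing to the calls.

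Granule protease genes included some below the array median on all HFD arrays and others above it on some. The tryptase gene Tpsab1 stood at 6.91 and 8.29 in WL and between 2.34 and 2.74 in HFD (difference 5.08 ± 0.40, at least 4.52, adjusted p = 2.52e-07). Tpsb2, a near-identical tryptase gene whose signal may be shared with it, stood at 10.14 and 10.46 in WL against 7.23, 2.55 and 4.85 in HFD (5.42 ± 1.11, adjusted p = 0.012). The chymase gene Cma1 stood at 9.23 and 9.32 against 7.29, 3.19 and 5.49 (3.95 ± 1.04, adjusted p = 0.0445). For Tpsb2 and Cma1 the obese arrays thus spread over more than 4 log2 units, with replicate 1 highest. Tpsb2 missed the threshold without either WL array (adjusted p of up to 0.051), and Cma1 did so without any of WL replicates 1 and 2 and HFD replicates 2 and 3 (up to 0.16). Cpa3 (5.05 ± 1.38), the mast cell carboxypeptidase, and Mcpt4 (4.50) did not pass (adjusted p = 0.0529 and 0.0988). Ctsg, the protease cathepsin G, rose by 4.04 ± 0.31 (at least 3.05), and Cyp11a1, which makes pregnenolone from cholesterol, by 4.35 ± 0.44 (at least 3.83).

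GATA2 binds GATA motifs, and promoters of both IgE receptor genes are printed because the genes rose together. Among 12 tested mast cell list members with a promoter in the RefSeq table (GRCm38.p6), 3 held AGATAA on either strand in the 250 bases before the start, namely Cpa3, Fcer1a and Ms4a2. That was 25%, against 9.99% of all 32851 promoters of the table. The first share counts genes, with a match in any promoter of the gene, and the second counts promoters, so their units differ. Of the 9 such members called higher, 2 held the motif (22.2%). A link between the motif and the rises was not tested. Windows are chr1:173227230-173227479 on the - strand and chr19:11623720-11623969 on the - strand, written 5′ to 3′ on the strand of the gene, and capitals mark AGATAA or its reverse complement TTATCT. Fcer1a holds 1 match and Ms4a2 holds 3. A match is a description of the letters and not a binding site.
Fcer1a: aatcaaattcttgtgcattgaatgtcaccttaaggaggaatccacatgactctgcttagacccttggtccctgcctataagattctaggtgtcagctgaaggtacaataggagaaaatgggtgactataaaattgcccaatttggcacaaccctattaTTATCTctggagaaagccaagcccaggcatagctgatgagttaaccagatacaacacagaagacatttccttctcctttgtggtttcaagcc
Ms4a2: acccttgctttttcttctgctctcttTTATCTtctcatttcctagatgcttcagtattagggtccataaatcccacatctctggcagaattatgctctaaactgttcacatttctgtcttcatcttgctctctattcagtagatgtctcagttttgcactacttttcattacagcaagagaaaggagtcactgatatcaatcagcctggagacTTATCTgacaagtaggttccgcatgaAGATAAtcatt

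Markers of endothelial cells and of cytotoxic lymphocytes rose in part, where 1.17% of all genes tested rose and 1.79% fell. Of 15 endothelial genes, all tested, 4 rose and none fell, with a median difference of 1.46. Plvap, a protein of fenestrated vessels, stood at 5.41 and 5.99 in WL against 3.44, 3.06 and 3.57 in HFD (2.34 ± 0.35, adjusted p = 0.00109). Robo4, Pecam1 and Cldn5 rose by 1.86, 1.93 and 1.83, while Vwf (-0.01) and Tie1 (-0.23) did not pass. Pecam1 and Cldn5 lost the call without WL replicate 2 or HFD replicate 1. Of 15 tested NK cell and innate lymphoid genes, 3 rose (median of the list 1.45): Gzmb, the granule protease granzyme B, Klrk1 (2.41) and Klrb1c (2.13). Without WL replicate 2 only Gzmb of the list was called. Gzmb stood at 7.39 and 8.74 against 3.95, 3.16 and 3.48 (4.54 ± 0.57, adjusted p = 0.000109). Prf1 (0.14), which encodes perforin, and Eomes (0.21) did not pass. Granzyme B is also known from mast cells, so its gene cannot be assigned to either list here.

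The neutrophil list had 3 rises among 12 tested genes, Hdc, S100a9 and Mmp9, and Hdc is also a mast cell gene. Over all genes tested 1.17% rose. S100a9, a subunit of the neutrophil protein calprotectin, stood at 9.07 and 8.42 against 5.77, 6.10 and 5.75 (2.87 ± 0.58). Among B cell, T cell, dendritic cell and adipocyte genes 1 each rose: Ms4a1 (1.68, at least 0.97), Cd28 (1.16), Ly6d (2.37) and Plin1 (1.24). Each of these 4, and S100a9, lost the call on leaving out some array. Of 11 tested immunoglobulin kappa variable (Igkv) genes, which the rule for naming passes over and which were looked at after their values were seen, 4 rose, with a median of 2.26 over the 11. Igkv4-59 stood at 6.11 on both WL arrays against 1.96, 1.56 and 1.49 (4.43 ± 0.75, at least 3.03, adjusted p = 0.00317), and was called with each array left out. The other 3 rose by 2.65 to 3.58, and these similar segments may share signal. No preadipocyte and fibroblast gene passed (0 of 22, median 0.73), nor did any of 8 mesothelial, 12 smooth muscle and pericyte, 4 eosinophil or 13 monocyte-derived cell genes, nor the only erythrocyte gene tested. The fibroblast list had a median level of 7.98 and 7.20 in WL and of 6.38, 6.15 and 7.69 in HFD, so HFD replicate 3 overlapped WL. Without that array 5 of the 22 were called. How far mast cells and cells of these types in the sorted samples bear on the other results was not tested.

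Il6, which encodes the cytokine interleukin 6, was called with each array left out. It stood at 8.13 and 8.02 after weight loss, at 1.43, 3.17 and 1.74 in obesity and at 2.73 and 3.63 in lean mice. The difference was 5.96 ± 0.56 (adjusted p = 2.89e-06), and since 1 of the 3 HFD arrays was above its array median, the size of this rise rests on values near or below that median. Il1b, the gene of interleukin 1 beta, stood at 7.96 and 8.51 against 4.87, 5.07 and 4.56 (3.40 ± 0.42, adjusted p = 0.000101), and at 3.43 and 2.28 in lean mice. Il1b was also called with each array left out. Ptgs2, the inducible cyclooxygenase, rose by 3.09 ± 0.69 but lost the call when any of 4 arrays was left out (adjusted p of up to 0.091 against 0.02). Csf2, the gene of GM-CSF, rose by 1.64 ± 0.24 (at least 1.46) and stood at 4.36 and 4.72 against 2.79 to 3.03.

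The cytokine list held calls in both directions, where 1.17% of all genes tested rose and 1.79% fell. Of its 19 tested members 4 rose (Il6, Il1b, Ptgs2 and Csf2) and 1, Il18, fell (-1.40 ± 0.31), with an adjusted p of up to 0.202 on leaving out 1 array. The number called was 3 without WL replicate 2 or HFD replicate 2. Tnf stood at 7.53 and 9.03 against 7.32, 6.76 and 6.57, a difference of 1.40 ± 0.41 that did not pass (adjusted p = 0.0719). Il10 (0.92), Nos2 (0.32), Il1rn (-0.35) and Nlrp3 (-0.11) did not pass either. Among 23 listed chemokine genes, Ccl4 rose by 1.47 ± 0.36 and Cxcl16 fell by 1.10 ± 0.28; leaving out 1 array brought them to adjusted p of up to 0.257 and 0.19. Ccl11, the eosinophil attractant eotaxin, was not in that list and was picked after its value was seen. It stood at 10.39 and 9.95 against 7.74, 7.28 and 9.03 (2.15 ± 0.45, adjusted p = 0.0135), with an adjusted p of up to 0.094 on leaving out 1 array, and rose by 3.40 in CD11c+ ATM. Rgs16, which shortens signalling by G protein-coupled receptors, stood at 7.67 and 7.62 against 4.32, 2.40 and 3.73 (4.16 ± 0.70, adjusted p = 0.00317). Spink8 stood at 8.02 and 5.20 against 1.77 to 2.61 (4.48 ± 1.07, at least 3.53), and its call was lost without WL replicate 1 or any HFD array (adjusted p of up to 0.26).

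**Figure D2:**
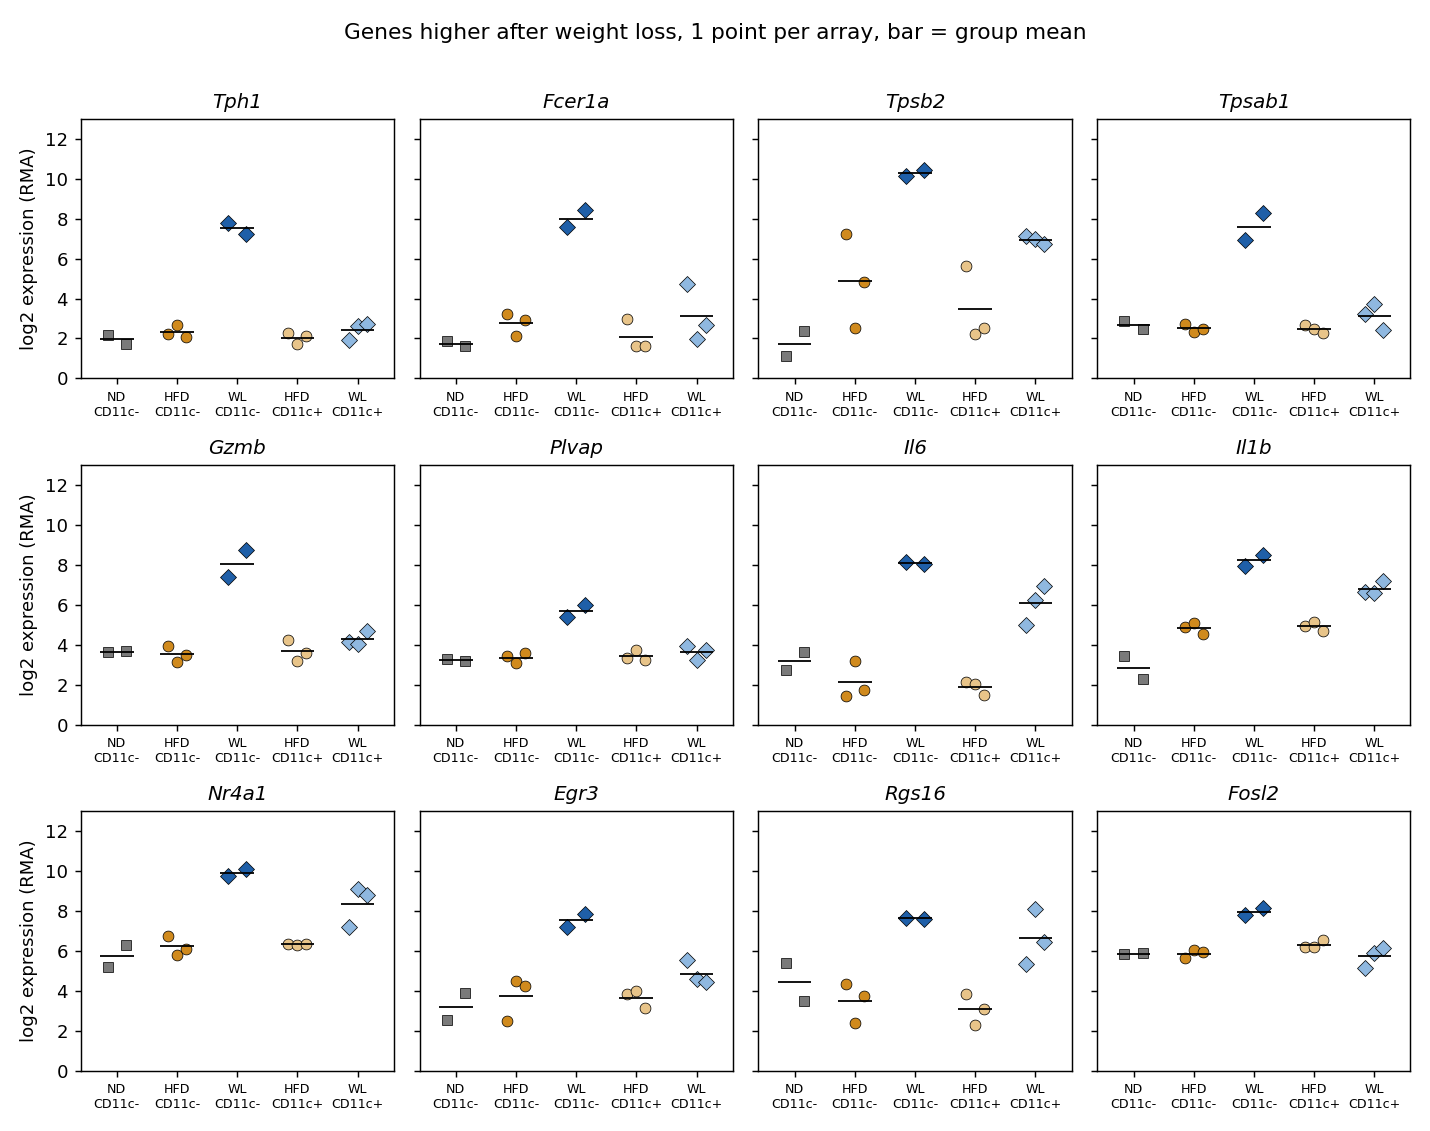
Log2 expression of 12 genes that were higher in WL than in HFD CD11c- ATM, with 1 point per array and a bar at each group mean, in lean (ND), obese (HFD) and weight loss (WL) CD11c- ATM and in obese and weight loss CD11c+ ATM. Tph1 stands at 7.78 and 7.25 in WL CD11c- ATM and at or below 2.74 elsewhere, while Il6 is also higher in WL CD11c+ ATM, at 4.99 to 6.96.

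Immediate early genes respond quickly to signals and also to tissue digestion. Of 32 tested genes 9 rose after weight loss and none fell, where 1.17% of all genes tested rose and 1.79% fell. Above 0 were 29 of the 32 differences (median 0.84), against 6616 of 15496 over all genes. The median level of the list was 8.77 and 8.90 in WL, 7.68 to 7.87 in HFD, and 8.31 and 8.18 in lean mice, so the lean arrays lay between the other groups. Nr4a1, an orphan nuclear receptor, stood at 9.74 and 10.09 against 6.76, 5.82 and 6.11 (3.68 ± 0.56, adjusted p = 0.00141) and at 5.20 and 6.31 in lean mice. Egr3 rose by 3.81 ± 0.71, Nr4a2 by 3.13 ± 0.63 and Fosl2 by 2.09 ± 0.33. The other rises were Nr4a3, Hspb1, Egr1, Dusp2 and Socs3, from 1.24 to 2.01. Fos (0.22), Dusp1 (0.14) and Zfp36 (0.53), which belong to the same early response, did not pass. With 1 array left out, 4 (without WL replicate 2) to 8 members were called. The labels do not state whether handling of the tissue differed between the diets, and its part in these values was not tested.

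CREB, a factor that drives many early genes, binds the cyclic AMP element, of which TGACG is only a part. Of 27 tested early genes with a promoter in the same table, 14 held TGACG on either strand (51.9%), against 17.8% of all promoters. Here too the first share counts genes and the second counts promoters. Of the 7 such genes called higher, 4 held it (57.1%), namely all 3 Nr4a genes and Hspb1. Fos and Dusp1, which did not pass, held it too. A link between the motif and the rises was not tested. The promoters of Nr4a1 (chr15:101266596-101266845 on the + strand) and of Il6 (chr5:30012864-30013113 on the + strand) are shown as those of an early gene and of a cytokine gene that rose. Capitals mark TGACG or its reverse complement CGTCA, which Nr4a1 holds at 4 places and Il6 at 1.
Nr4a1: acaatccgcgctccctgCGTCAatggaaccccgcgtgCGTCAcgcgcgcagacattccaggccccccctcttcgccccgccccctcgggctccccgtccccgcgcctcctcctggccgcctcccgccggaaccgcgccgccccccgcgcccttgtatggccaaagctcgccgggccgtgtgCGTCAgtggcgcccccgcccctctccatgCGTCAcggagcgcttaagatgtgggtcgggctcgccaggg
Il6: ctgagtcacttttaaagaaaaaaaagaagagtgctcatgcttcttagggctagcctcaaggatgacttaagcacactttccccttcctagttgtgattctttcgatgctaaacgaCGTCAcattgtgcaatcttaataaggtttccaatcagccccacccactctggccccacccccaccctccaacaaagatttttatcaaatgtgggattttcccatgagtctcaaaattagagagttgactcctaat

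None of 14 macrophage identity genes was called, and all 14 differences were below 0 (12 of 14 after centring), with a median of -0.49. Of all 15496 genes tested, 8880 had differences below 0, 1.17% were called higher and 1.79% lower. The lowest of the list were Fcgr1 (-1.39 ± 0.76), the high-affinity IgG receptor, Cd163 (-1.02), a haemoglobin scavenger receptor, and Mertk (-0.66), a receptor for dying cells. The median level of this list was 9.84 and 9.83 in WL, 10.25 to 10.39 in HFD and 10.58 and 10.68 in lean mice. None of 20 tissue-resident macrophage genes was called either (median -0.45). Timd4, a phosphatidylserine receptor of resident macrophages, stood at 6.73 and 5.43 in WL, at 6.17, 7.14 and 5.78 in HFD, and at 9.15 and 8.92 in lean mice. WL and HFD arrays overlapped for Timd4, and both lay below lean.

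None of 22 tested lipid-associated macrophage genes was called between WL and HFD, and their median difference was 0.08. After centring, or without HFD replicate 3, 1 was called. Between WL and lean arrays 10 of the 22 were higher, where 3.23% of all genes were higher and 2.95% lower. Both comparisons share the WL arrays. Gpnmb, a glycoprotein of lipid-laden macrophages, stood at 9.92 and 10.58 in WL, at 9.53, 8.72 and 10.10 in HFD, and at 5.63 and 5.96 in lean mice. Cd9, a tetraspanin, stood at 7.77 on both WL arrays, at 8.54, 6.79 and 8.21 in HFD and at 4.93 and 4.98 in lean mice. Trem2, the lipid-sensing receptor, differed by -0.11 ± 0.75 and Itgax by 0.39 ± 0.67. Mmp12, macrophage elastase, stood at 9.42 and 9.89 against 7.73, 7.08 and 8.69 (1.82 ± 0.50, adjusted p = 0.0547) and at 3.36 and 4.64 in lean mice. Pparg, the fatty acid receptor PPAR gamma, stood at 7.53 and 7.40 in WL, 7.75 to 8.27 in HFD and 5.71 and 6.20 in lean mice (-0.58 ± 0.29, did not pass).

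**Figure D3:**
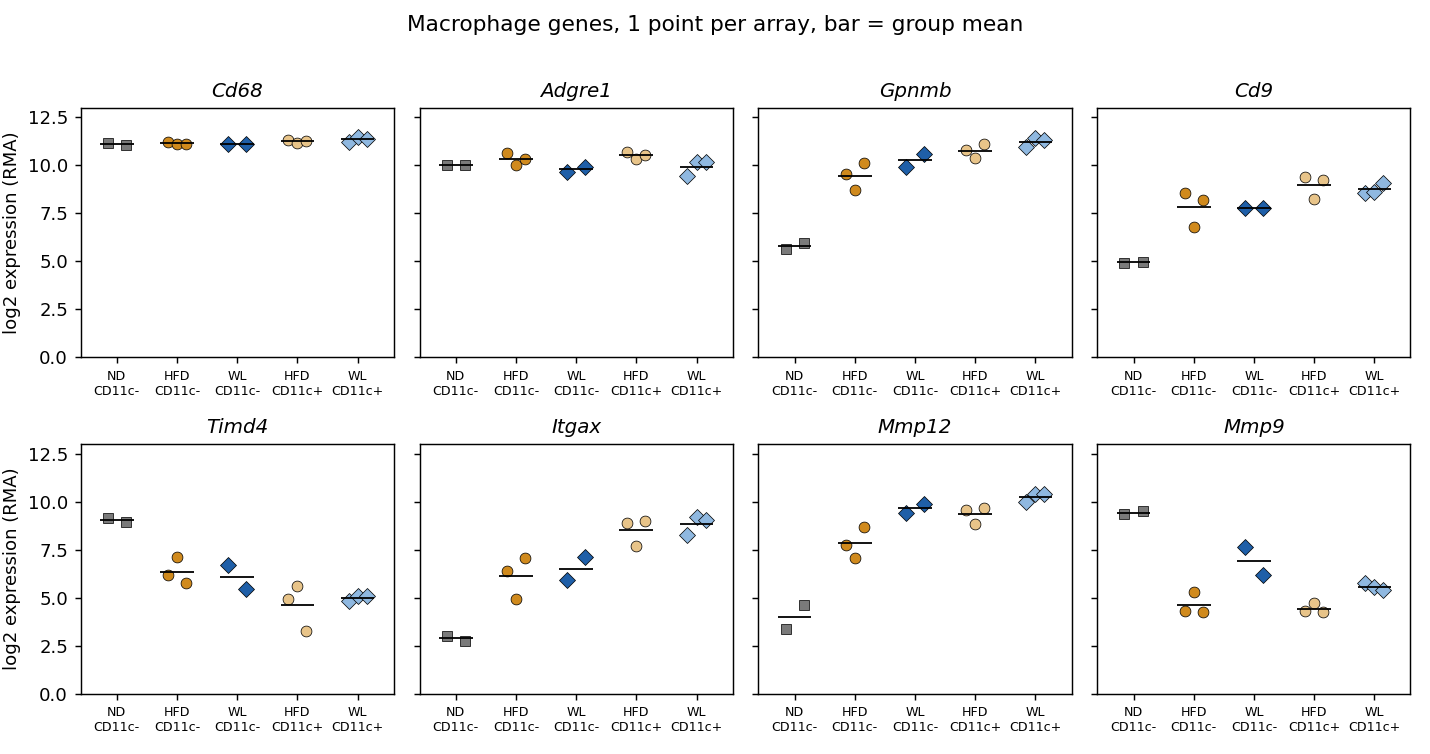
Log2 expression of 8 macrophage genes, 1 point per array and a bar at each group mean. Gpnmb, Cd9, Itgax and Mmp12 lie higher in HFD and WL than in lean CD11c- ATM, Timd4 lies lower, and Mmp9 stands at 9.34 and 9.51 in lean, 4.27 to 5.30 in obese and 7.62 and 6.20 in WL CD11c- ATM.

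Of 23 tested matrix remodelling genes 2 rose, both proteases, where 1.17% of all genes tested rose. Adamts1, which cleaves proteoglycans, stood at 7.11 and 7.20 against 4.75, 3.69 and 5.30 (2.58 ± 0.48, adjusted p = 0.00621). Mmp9, gelatinase B, stood at 7.62 and 6.20 against 4.30, 5.30 and 4.27 (2.28 ± 0.35, adjusted p = 0.00149), but at 9.34 and 9.51 in lean mice, so that WL lay between obese and lean. After centring 5 members of this list were called. Collagen and matrix genes were not called (0 of 41), although 37 of 41 differences were above 0 and the median was 0.56. Over all genes 6616 of 15496 differences were above 0. Their list stood at 7.30 and 6.91 in WL, at 5.36 and 5.47 on HFD replicates 1 and 2, and at 7.67 on HFD replicate 3. Without that last array 10 of the 41 were called, and 6 matrix remodelling genes. Has1 (3.54 ± 0.44, at least 2.65), a hyaluronan synthase named after its value was seen, rose with each array left out.

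No gene list held more than 1 gene that fell. Only 1.79% of all genes tested fell, so lists of this size would hold few such genes at that share. The median of the 277 lower calls was -1.35, and their median level went from 6.47 in HFD to 4.98 in WL. Snord89, a small nucleolar RNA, stood at 2.70 and 2.98 in WL against 8.64, 8.67 and 7.51 in HFD and 8.17 and 8.68 in lean mice (-5.43 ± 0.93, adjusted p = 0.00336). Both WL arrays lay below the array median, so the bound on the difference was -5.15. Rad1, a subunit of the clamp that senses DNA damage, stood at 2.86 and 3.76 against 6.60, 6.79 and 6.86 (-3.45 ± 0.36, adjusted p = 1.14e-05). Trit1, which modifies transfer RNA, stood at 2.91 and 3.78 against 6.11, 5.06 and 5.96 (-2.36 ± 0.36). These 3 genes, Rab26os (-2.76) and C6 (-2.36), a component of the complement attack complex, were called with each array left out.

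Calls of other large falls depended on single arrays. The row annotated to the microRNA gene Mir103-2 (-4.09 ± 0.95), the mitochondrial transcription factor gene Mterf1b (-4.44 ± 1.13), Trim30c (-3.82 ± 0.90), Zfp873 (-3.01), Zfp97 (-2.80) and Kctd21 (-2.66) each lost the call on leaving out some array, with adjusted p of up to 0.14, 0.17, 0.093, 0.077, 0.23 and 0.089. Both WL arrays of these 6 genes lay below the array median, and the bounds on their differences were -3.14, -2.21, -3.62, -2.37, -1.82 and -1.69. The call was also lost on leaving out some array for Tnfrsf17 (-2.53), the receptor BCMA, Zfp931 (-2.49), Vcpkmt (-2.35) and Clec5a (-2.32), a C-type lectin of myeloid cells. Tnfrsf17 stood at 3.02 and 3.48 in WL, 5.60 to 5.91 in HFD and 6.57 and 7.46 in lean mice. Clec5a stood at 3.54 and 2.83 in WL against 5.09 to 5.75 in HFD. For both genes WL lay below obese and lean arrays alike.

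**Figure D4:**
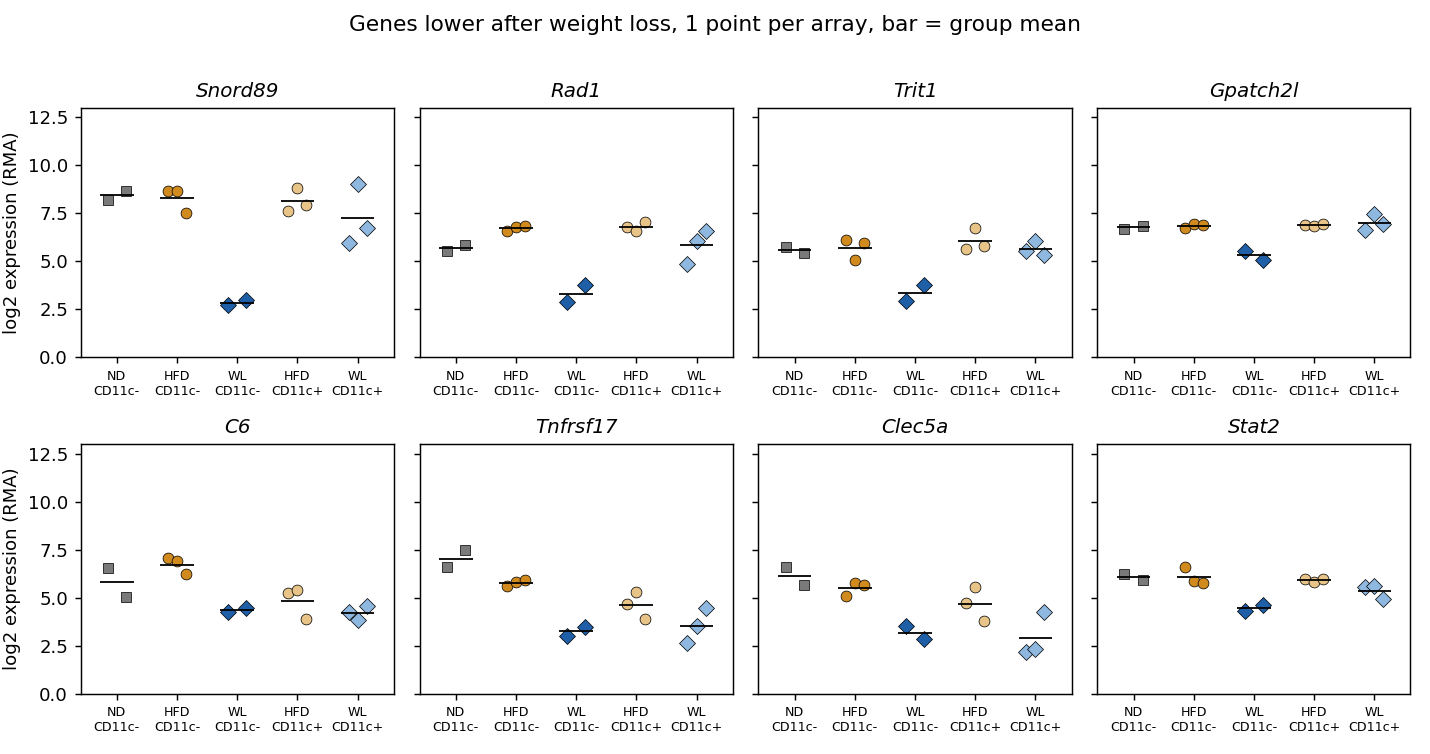
Log2 expression of 8 genes that were lower in WL than in HFD CD11c- ATM, 1 point per array and a bar at each group mean. Rad1, Trit1 and Gpatch2l are low only on the 2 WL CD11c- arrays among those shown, while Tnfrsf17 and Clec5a are also low on WL CD11c+ arrays. Of the 8 genes, the test of the difference between the sorts called Rad1 and Gpatch2l but not Trit1 or the others.

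Pathways of innate sensing and metabolism gave few calls, where 1.17% of all genes tested were higher and 1.79% lower. At such shares, lists of this size would hold few calls. Of 20 tested interferon response genes 1 fell, Stat2 (-1.62 ± 0.33, adjusted p = 0.0109), a carrier of the type I interferon signal, and 16 differences were below 0 (13 after centring), with a median of -0.69. Stat2 stood at 4.30 and 4.61 against 6.62, 5.87 and 5.74, and lost the call without WL replicate 1 or HFD replicate 1 (adjusted p of up to 0.078). Of 17 Toll-like receptor and adaptor genes none was called and 16 differences were below 0 (15 after centring), with a median of -0.54. Cell cycle genes were not called (0 of 39), with 36 differences below 0 (33 after centring) and a median of -0.38. Before centring, 8880 of all 15496 differences were below 0. After centring the median over all genes was 0.05, and those of the interferon, Toll-like and cell cycle lists were -0.55, -0.40 and -0.24. Single members fell in the lists for cholesterol efflux (Cyp27a1, -1.04), sterol synthesis (Sc5d, -1.53), lipid droplets (Plin3, -1.27), lysosome (Ctsf, -1.42) and respiratory chain (Sdhd, -1.11). After centring, Stat2, Cyp27a1 and Ctsf remained called and the other 3 lists held no call. After the further quantile normalization the lysosome list held no call either. Single members rose in those for hypoxia (Ndrg1, 1.90 ± 0.36), antioxidant response (Slc7a11, 3.44 ± 0.75, at least 2.13), the unfolded protein response (Ppp1r15a, 1.89 ± 0.35) and purine receptors (Adora3, 1.20, at least 0.81). Of these 9 single members and Stat2, only Ndrg1 and Ppp1r15a were called with each array left out. Glycolysis (0 of 19), MHC class II (0 of 11), Fc receptor and phagocytosis (0 of 20) and chemokine receptor genes (0 of 12) were not called.

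CD11c+ ATM, sorted as a separate population, shared part of the calls. Its arrays entered the CD11c- comparison through the shared estimate of the spread but not through the group means. The labels do not state whether both sorts came from the same mice. Between WL and HFD CD11c+ ATM 0.632% of genes were higher and 0.697% lower. Of the higher calls 23 were shared, which was 12.6% of those in CD11c- ATM and 23.5% of those in CD11c+ ATM. Of the lower calls 19 were shared, 6.86% and 17.6%. Il6 stood at 4.99, 6.25 and 6.96 in WL against 2.12, 2.05 and 1.48 in HFD CD11c+ ATM, a difference of 4.18 (adjusted p = 0.000627). Il1b differed there by 1.89 (adjusted p = 0.0202), S100a9 by 2.68, Rgs16 by 3.55, Ptgs2 by 2.63 and Adamts1 by 2.36, and all 5 passed. The microRNA row Mir103-2 fell there too (-3.85).

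A test of the difference between both effects called 25 genes (7 with only the arrays of the 4 groups in the fit), 22 with a higher effect in CD11c- ATM (0.142% of genes) and 3 with a lower one (0.0194%). Of the 22, 5 were mast cell list members (Tpsab1, Mrgprb1, Hdc, Slc6a4 and Ms4a2). Tph1 differed by 4.82 ± 0.36 (adjusted p = 6.13e-07), with an effect of 0.39 in CD11c+ ATM. Tpsab1 differed by 4.45 ± 0.54 and Gzmb by 3.90 ± 0.76. Igkv4-59 differed by 5.62 ± 1.01. No mast cell gene was called in CD11c+ ATM, where the list's median difference was 1.02. Tpsb2 stood at 7.11, 6.99 and 6.75 in WL against 5.61, 2.23 and 2.54 in HFD CD11c+ ATM, and its effects in both sorts were not shown to differ (adjusted p = 0.85). Fosl2 rose in CD11c- ATM and differed by -0.58 in CD11c+ ATM, where it did not pass. In the lower direction the genes were Rad1 (-2.48 ± 0.48), Gpatch2l (-1.66 ± 0.33) and Lgi2 (-3.02 ± 0.60). Lgi2 did not pass in CD11c- ATM (-0.21) and rose by 2.81 in CD11c+ ATM. For Il6 the difference between the effects was 1.78 and did not pass (adjusted p = 0.651).

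**Figure D5:**
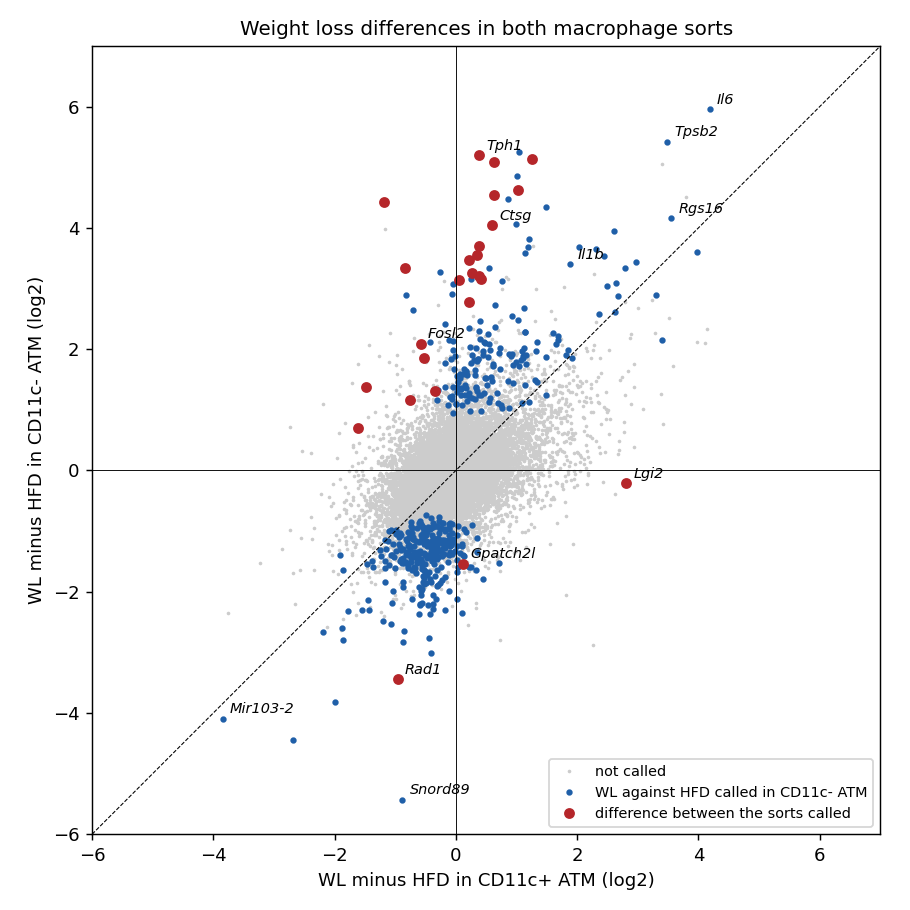
WL minus HFD difference (log2) of each tested gene in CD11c+ ATM (x axis) and in CD11c- ATM (y axis); blue points were called between WL and HFD CD11c- ATM, red points by the test of the difference between the sorts, and the dashed line marks equal effects. Tph1 and Ctsg lie near 0 on the x axis and above 4 on the y axis, while Il6 lies high on both.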

How the data were processed

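Expression was measured on single-channel arrays of sorted cells. The deposited values are on the log2 scale, and the authors made them with RMA, oligo and limma named, without versions, per the submitters' processing notes. Of 41345 probe rows, 23521 carry 1 gene symbol, 1814 several and 16010 were not named here. Each of 22180 genes was represented by its row of highest mean over the 24 arrays, and the 15496 genes above the array median on at least 2 arrays were tested. Array medians were 2.96 to 3.15. The number of arrays limits the precision.

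One limma fit (limma 3.58.1, R 4.3.3) over 24 arrays and 9 groups, with 15 residual degrees of freedom, gave two-sided p-values with Benjamini-Hochberg adjustment over all tested genes of each comparison, and a threshold of 0.05. Adjusted p in the text come from this fit or the named alternative. The p-values measure the spread between these samples, several of which were pools. The fit was tested on simulated data: it recovered 16.4% of genes changed by 1 log2 unit, 88.1% of those changed by 2 and 98.5% of those changed by 3, and for the difference between the sorts 5.97%, 56.7% and 92.4%. It also called 9 and 10 unchanged genes. The simulation drew genes independently and gave all arrays of a gene the same spread. The WL arrays resembled each other less than the HFD arrays did, so these shares hold for the simulated setting only.

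Genes were named by a rule: the 15 largest rises and 15 largest falls past the threshold with groups that do not overlap, passing over gene models without a name, antigen receptor segments and the receptors for odours and pheromones, the 5 largest each way in the difference between the sorts, up to 4 called members of each of 45 gene lists (otherwise up to 3 of the largest difference), and 12 fixed macrophage genes. Genes named outside it were picked after their values were seen, among them Slc18a2, Slc6a4, Ms4a2, Gata2, Has1, Ccl11, Igkv genes and members given as not passing. The members and lists were chosen with earlier results of these data known. Alternatives covered the arrays in the fit, array weights, filters, scaling, the probe row rule, the replicate number as a block and leaving out each array.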

Additional observations from a re-analysis of the deposited data

Results flagged for a closer look

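These genes were singled out because the weight loss effect in CD11c- ATM differed from that in CD11c+ ATM by a test of the difference itself (limma, adjusted p below 0.05). Values are the CD11c- effect minus the CD11c+ effect on the log2 scale, and no explanation was weighed. Tph1 differed by 4.82 (SE 0.36, adjusted p = 6.13e-07) and Tpsab1 by 4.45 (SE 0.54, adjusted p = 0.000264). Mrgprb1 differed by 3.88, Hdc by 3.60 and Ctsg by 3.44, with adjusted p of 0.0126, 0.00545 and 0.000264. Gzmb differed by 3.90 (adjusted p = 0.0411). Fosl2 differed by 2.67 and Robo4 by 2.39, with adjusted p of 0.00948 and 0.0292. The differences of Gpatch2l, Rad1 and Lgi2 were -1.66, -2.48 and -3.02, with adjusted p of 0.0411, 0.0411 and 0.0415. No gene was called in the lower direction without HFD CD11c- replicate 2 or 3, without any of the 3 HFD CD11c+ arrays, or in the fit of only the arrays compared. Genes picked after their values were seen were Igkv4-59 (5.62), Slc18a2 (3.32), Slc6a4 (2.98) and Ms4a2 (2.57), with adjusted p of 0.0237, 6.13e-05, 0.00443 and 0.0181.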

How the results depend on the processing

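The count of 459 genes became 31 in a fit of only the arrays compared and 173 with array weights, which gave both WL arrays 0.570. It was 462 with the replicate number within diet as a random block, 440 to 581 with other filters, 460 with the mean of probe rows, 455 with a trended robust prior, 379 after centring and 347 after quantile normalization. Leaving out 1 array gave 199 to 570. With the replicate number as a block, 372 genes were called and 339 of these were among the 459. Deviations of same-numbered WL and HFD arrays correlated at -0.04 and -0.03. The deviations of 2 arrays from their mean mirror each other, so these values cannot show or exclude pairing. The pairing rests on a number alone. The 25 genes of the difference between the sorts became 7 in the smaller fit and 12 to 63 with 1 array left out, the highest without WL CD11c- replicate 2; the replicate block gave 21. WL against lean gave 957, 222 in the smaller fit, 594 with array weights, 920 with the replicate block and 374 to 834 with 1 array left out, where 374 and 400 came without lean replicates 2 and 1. Causes were not tested. The smaller fits hold fewer arrays and also take the spread from those arrays alone, and the parts of both cannot be told apart. Of 63 named genes that were called, 29 were called with each of the 5 arrays left out, 37 under every other alternative apart from the 5-array fit, 18 in that fit, and none reversed. WL has 2 arrays, and genes near the array median have only bounds.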
